A study of Mus musculus with 24 samples.

Results

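Dendritic cells grown from the bone marrow of mice labelled C57 were compared with those of mice labelled B6 in the untreated state, 4 C57_Untreated and 4 B6_Untreated libraries out of the 24 libraries of a series on natural genetic variation and endotoxic shock. All libraries of the deposited expression table whose labels carry those group names were taken, and the comparison ran over all 13246 genes that reached 1 TPM (transcript abundance corrected for length, summing to the same total in each library) in at least 4 of the 24 libraries, out of 55291 symbols in the table. Both groups shared the same culture: bone marrow cells were kept for 7 days in medium with 20 ng/ml GM-CSF, seeded in 12-well plates and left without stimulus, and libraries were made from 1 µg of total RNA each with a stranded kit. The design text describes the 4 replicates of a genotype as cultures from individual mice. The 3 strains of the series are B6, C57 and PWD, with no age, sex or allele in the labels, and the labels do not say what sets C57 mice apart from B6 mice. The cells are tagged BDMC in the labels, while the growth protocol describes bone marrow-derived dendritic cells. The other groups are PWD_Untreated and the same strains after lipopolysaccharide (LPS) at 10 ng/ml for 6 hours, and they appear only where their values stand beside those of the untreated C57 and B6 cells.

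GM-CSF is a growth factor that turns bone marrow precursors into a mixed population of dendritic cells and macrophages, with granulocytes and their precursors as companions. Dendritic cells take up antigen, display its peptides on MHC molecules and, as they mature, raise co-stimulatory molecules and the chemokine receptor that guides them to lymph nodes. Interferons made at low levels by the same cells keep a set of antiviral genes switched on through Jak and Stat proteins, and chemokines released by the cells attract monocytes and lymphocytes.

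A gene is called here when limma, fitted to log2(TPM + 1) over all 24 libraries, gave a p under 0.05 after Benjamini-Hochberg adjustment across the 13246 genes, and each log2 difference is C57 minus B6 on that scale, which understates the change of genes near 1 TPM. Untreated C57 and B6 cells differed in 5135 genes (38.8% of those tested), 4219 of them higher in C57 (31.9%) and 916 lower (6.92%). The median gene was higher in C57 by 0.17, and the balance of higher and lower calls depended on the scale. Median-of-ratios scaling (called scaling from here on) brought the median difference to about 0, and then 5265 genes were called (39.7%), 2673 higher (20.2%) and 2592 lower (19.6%). In 39.5% of the tested genes the 4 C57 values did not overlap the 4 B6 values. No gene was called in opposite directions by the 2 scales, and 2672 higher and 914 lower calls were common to both. A change of 2-fold or more (log2 difference of at least 1 either way, and called) was found in 504 genes (3.8%), 345 higher and 159 lower.

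The 8 libraries parted by strain. Pearson correlations of log2(TPM + 1) were 0.984 to 0.988 within a group and 0.960 to 0.970 between groups, and the first principal component, with 53.6% of the variance, separated C57 from B6. Xist, the RNA of the inactive X chromosome, stood at 0.0901, 0.0039, 53.1 and 65.4 TPM in B6_Untreated replicates 1 to 4 and at 0.0041, 0.0145, 62.5 and 63.9 TPM in C57_Untreated, so each group held 2 libraries with it and 2 without. Y-linked genes summed to 96.5, 85.3, 0 and 0.0162 TPM in B6_Untreated replicates 1 to 4 and to 93.3, 93.0, 0.0197 and 0.0461 TPM in C57_Untreated. In both groups replicates 1 and 2 thus read as male and replicates 3 and 4 as female, though the labels give no sex. With only the 2 libraries of each group that lacked Xist 3393 genes were called, and with only the other 2 of each group 4590. Structural RNA such as 7SL took 32.0%, 38.7%, 44.2% and 36.1% of TPM in B6_Untreated and 33.8%, 34.1%, 35.8% and 35.1% in C57_Untreated (two-sided exact permutation p = 0.314, smallest possible 0.0286). B6_Untreated replicate 3, with the highest share, bore on the count most: without it 4203 genes were called, 3158 of them higher in C57. C57_Untreated replicate 2 stood apart from the other C57 libraries in several gene groups. It had the highest of the 4 C57 values in 41 of 44 interferon-stimulated genes, 24 of 29 maturation genes and 0 of 21 granulocyte markers, against 28.6% of all genes tested. Results on those groups are therefore given also without it. C57_Untreated replicate 2 was also highest in 16 of 22 chemokines and 15 of 22 MHC class I genes. The same held for 15 of 24 NF-kB genes and 13 of 21 interferon and Jak-Stat genes. It was highest in only 1 of 42 cell cycle genes and 1 of 40 nuclear genes of oxidative phosphorylation. Counts for these further lists are given with all libraries.

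The labelled cell type was checked against its markers. Itgax, the integrin CD11c, stood at 372, 305, 299 and 385 TPM in B6_Untreated and 304, 302, 312 and 317 TPM in C57_Untreated, the groups overlapped, and the difference was -0.13 ± 0.13 (SE; adjusted p = 0.46). Csf2rb, the shared signalling chain of the GM-CSF receptor, lay between 753 and 1000.2 TPM in all 8 libraries, and its alpha chain Csf2ra fell from a mean of 189 to 151 TPM (-0.32; adjusted p = 0.0039). Zbtb46, a transcription factor of conventional dendritic cells, fell from a mean of 12.5 to 8.66 TPM (adjusted p = 0.0078). Flt3, the receptor of the other main dendritic cell growth factor, was under 1 TPM in all 8 libraries and was not tested.

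C57 cells held less RNA of the genes by which dendritic cells present antigen to helper T cells. Of 14 tested genes of MHC class II presentation, 11 fell in C57 and 0 rose, with a median of -0.96 (background 6.92% of all genes lower, median 0.17). H2-Ab1, the beta chain of the class II molecule I-A (chromosome 17, 34257689 to 34269419, plus strand, mm10), stood at 1695, 1444, 1267 and 1485 TPM in B6_Untreated and at 487, 592, 429.9 and 435 TPM in C57_Untreated. All C57 libraries lay below all B6 libraries, and the level was 3.04-fold lower in C57 (-1.60 ± 0.14, SE; adjusted p = 3.4e-09). H2-Aa, which encodes the partner alpha chain, fell by 1.60, and H2-Eb1, the beta chain of I-E, fell by 1.56. Cd74, the invariant chain that escorts class II molecules to the endosome, was among the most abundant messages of the cells, with 6605, 5579, 4962 and 6013 TPM in B6 and 2007, 2339.9, 1796 and 1842 TPM in C57. Its groups did not overlap either, and it fell by 1.54 ± 0.16 (SE; adjusted p = 6.3e-08). Ciita, the transactivator on which class II transcription depends, stood at 67.6, 54, 35.3 and 49.5 TPM in B6 and 26.6, 27.8, 20.4 and 21.4 TPM in C57. It too was lower in each C57 library than in each B6 library (-1.04 ± 0.17, SE; adjusted p = 4.8e-05). The class II chains have close relatives in the same gene family, so reads could be split between copies, and whether counting used the strand is not stated. In bulk RNA, fewer cells of a type and less RNA per cell cannot be told apart.

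Genes of dendritic cell maturation were lower in C57 as a group: 21 of 29 tested fell and 1 rose (Tnfsf9, the ligand of the receptor Tnfrsf9, 0.37), with a median of -0.93. Aldh1a2, the enzyme that makes retinoic acid, stood at 58.2, 45.2, 38.9 and 58.1 TPM in B6 and 6.8, 7.14, 5.79 and 6.9 TPM in C57. The groups were far apart, with a 6.6-fold lower level in C57 (-2.72 ± 0.14, SE; adjusted p = 7.9e-14). Ccr7, the receptor for lymph node homing, read 151, 115, 113 and 149 TPM in B6 against 45.1, 54.2, 35.7 and 35.4 TPM in C57, without overlap (-1.62 ± 0.15, SE; adjusted p = 4.6e-09). Fscn1, the actin bundler of dendrites, fell by 1.69, Cacnb3, a calcium channel subunit, by 2.34, Il4i1, a secreted amino acid oxidase, by 1.61, and the co-stimulatory receptor Tnfrsf9 by 2.02. Cd40, through which helper T cells license dendritic cells, fell from a mean of 28.5 to 14.1 TPM, the co-stimulatory ligand Cd86 from 69.2 to 41.1 TPM and its relative Cd80 from 62.4 to 43.2 TPM, and the inhibitory ligand Pdcd1lg2 fell by 1.41. Cd274, the other ligand of that receptor, did not pass the test (-0.23; adjusted p = 0.062). Without C57_Untreated replicate 2, 22 maturation genes and 11 MHC class II genes were called lower.

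Markers of conventional dendritic cells fell in 10 of 20 tested genes and rose in 3 (median -0.41). The summed level of the list overlapped between the groups, at 1859 to 2205 TPM in B6 and 1936 to 2000 TPM in C57. Irf4, a transcription factor of the type 2 conventional lineage, stood at 107, 90.4, 88.7 and 108 TPM in B6 and 50.2, 48.7, 49.6 and 49.4 TPM in C57. The values did not overlap and the C57 libraries were nearly alike (-0.97 ± 0.14, SE; adjusted p = 2.6e-06). Batf3, a factor of the type 1 lineage, fell by 0.76 and Bcl6, a transcriptional repressor, by 0.85. Sirpa, a surface receptor of type 2 dendritic cells and macrophages, rose instead, from a mean of 286 to 469.9 TPM (adjusted p = 2.9e-07). Markers of other cell types also differed between the groups, as given further on, and their part in the lower dendritic cell genes was not tested.

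**Figure D1:**
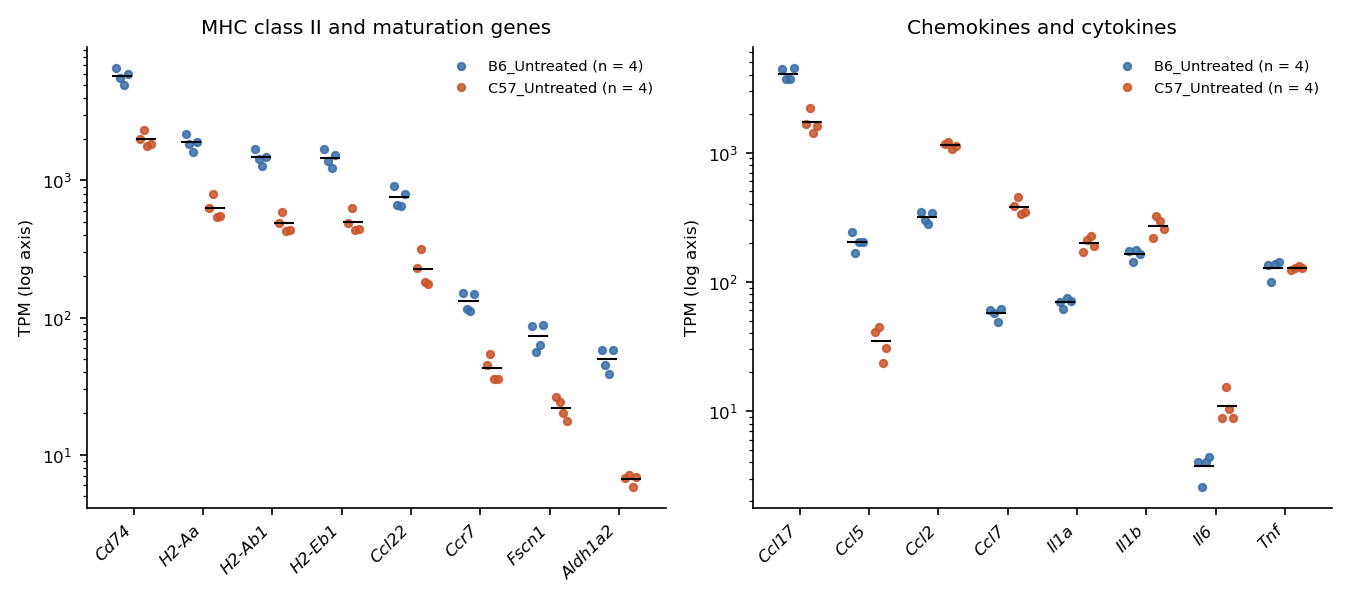
TPM in each of the 4 B6_Untreated and 4 C57_Untreated libraries (points, log axis) with group means (bars) for MHC class II and maturation genes (left) and chemokines and cytokines (right). The MHC class II and maturation genes sit lower in C57 in all cases shown, whereas on the right Ccl17 and Ccl5 sit lower, Ccl2, Ccl7, Il1a, Il1b and Il6 sit higher, and the values of Tnf overlap.

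Interferon-stimulated genes formed the next group lower in C57. None of 44 tested rose and 28 fell, with a median of -0.43. Slfn8, a member of the Schlafen family of antiviral RNA-binding proteins (chromosome 11, 83002158 to 83020810, minus strand, mm10), stood at 50.3, 39.3, 45.5 and 56.7 TPM in B6 and 11.9, 11.7, 10.2 and 10.3 TPM in C57. It was 4.04-fold lower with no overlap (-2.02 ± 0.11, SE; adjusted p = 1.4e-13). Its neighbour Slfn5 fell by 1.12 and Slfn1, outside the list but in the same cluster, by 2.80. Isg15, a ubiquitin-like modifier, read 154, 98.6, 152 and 187 TPM in B6 and 91.1, 125, 77.3 and 75.9 TPM in C57. Here the groups overlapped, because C57_Untreated replicate 2 lay above B6_Untreated replicate 2, and the difference was smaller (-0.67 ± 0.17, SE; adjusted p = 0.003). Ifit3, which binds foreign RNA, showed the same layout at 59.8, 47.6, 56.1 and 72.3 TPM in B6 and 32.7, 55.4, 31.4 and 28.7 TPM in C57 (-0.69; adjusted p = 0.0011). The count of interferon-stimulated genes called lower was 36 without C57_Untreated replicate 2, 19 without B6_Untreated replicate 4, and 5 with replicates 1 and 2 of each group alone, so how many of these genes passed depended on the libraries used.

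Guanylate-binding proteins, which attack the vacuoles of intracellular pathogens, and the related immunity GTPases fell in 8 of 16 tested genes and rose in 1 (10 fell without C57_Untreated replicate 2). Gbp2 stood at 189, 153, 103 and 114 TPM in B6 and 46.7, 64.8, 45.1 and 40.6 TPM in C57. The groups were 2.76-fold apart and did not overlap (-1.47 ± 0.16, SE; adjusted p = 8.1e-08). Gbp5, an inflammasome helper, fell by 1.20 and Gbp4 by 1.21. The single riser was Tgtp1, a GTPase induced in T cells and macrophages, at 1.59, 1.4, 1.72 and 2.6 TPM in B6 and 10.5, 22.6, 9.25 and 11.7 TPM in C57 (2.29 ± 0.21, SE; adjusted p = 7.8e-09). Tgtp1 has a near-identical neighbouring copy, as have several Gbp and Slfn genes, so their single values are uncertain. MHC class I presentation fell in 15 of 22 genes and rose in 1, for example the non-classical class I gene H2-T23 (-0.68; adjusted p = 4.1e-05) and the proteasome subunit Psmb9 (-0.50; adjusted p = 5.9e-04).

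Upstream of these genes, 8 of 21 tested interferons, interferon receptors and Jak-Stat members fell and 3 rose (15 lower and 0 higher after scaling). Jak2, a kinase of cytokine receptors including that of GM-CSF, fell from 243, 221, 179.6 and 225 TPM in B6 to 96.7, 115, 87.6 and 89.5 TPM in C57. Its libraries did not overlap (-1.15 ± 0.13, SE; adjusted p = 6.9e-08). Stat4, a transducer of interleukin 12 and interferon signals, fell by 1.41, and Stat2, a part of the interferon-activated transcription complex, by 0.57.

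Promoters of these genes, 250 bases before to 50 after the start in RefSeq (GRCm38.p6), were searched on both strands for the core of the interferon-stimulated response element, GAAANNGAA. It was found in 12 of the 18 promoters available for interferon-stimulated genes called lower (66.7%) and in 6 of 6 for the guanylate-binding group called lower, against 732 of 9419 promoters of all tested genes (7.77%). The stretches below are printed because they hold the matches in 4 genes whose values are given above. Capitals mark the matches, on either strand, and in Isg15 overlapping matches run together:
Isg15, chr4:156200846-156200926, minus strand: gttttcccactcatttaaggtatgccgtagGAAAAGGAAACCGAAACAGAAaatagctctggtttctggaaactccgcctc
Ifit3, chr19:34583344-34583465, plus strand: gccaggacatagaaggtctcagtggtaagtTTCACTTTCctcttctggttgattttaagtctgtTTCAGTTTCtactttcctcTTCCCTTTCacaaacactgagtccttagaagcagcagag
Gbp2, chr3:142620575-142620643, plus strand: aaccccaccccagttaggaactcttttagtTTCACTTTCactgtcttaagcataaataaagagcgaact
Slfn8, chr11:83020819-83020887, minus strand: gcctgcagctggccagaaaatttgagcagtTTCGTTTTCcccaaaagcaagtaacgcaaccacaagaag
A match is a description of the letters in the window and not of binding. Interferon-stimulated genes were listed for their response to interferon, so a high share among them does not bear on the strain difference. Promoters of list members that were not called were not counted apart. Of the other motifs searched, the AP-1 site TGANTCA was found in 5 of 9 available promoters of cytokine genes called higher (55.6%), against 5.13% of all. It was also found in 7 of 18 of the interferon-stimulated genes called lower (38.9%) and in 37.5% of scavenger receptors called higher, and the interferon element in 3 of 6 chemokine promoters called higher. The sterol element core TCACNCCAC was found in 0.98% of all promoters and in 0 of 6 of the cholesterol genes called higher.

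Chemokines split in both directions, 9 of 22 tested higher and 9 lower (7 and 11 after scaling). Ccl7, a monocyte attractant (chromosome 11, 82045712 to 82047525, plus strand, mm10), stood at 60.5, 57.1, 48.7 and 61.4 TPM in B6 and 383, 449.5, 332 and 346 TPM in C57. The level was 6.52-fold higher in C57 with no overlap (2.70 ± 0.11, SE; adjusted p = 1.9e-16). Ccl2, the main attractant of inflammatory monocytes and a neighbour of Ccl7, read 348, 299, 281 and 339 TPM in B6 and 1158, 1205, 1062 and 1133 TPM in C57. This was a 3.6-fold higher level (1.85 ± 0.09, SE; adjusted p = 5.7e-15), and Ccl1, also in the cluster, rose by 1.90 from low levels. The cluster did not rise throughout: between Ccl7 and Ccl1, Ccl12 fell by 0.93 and Ccl8 rose by 0.88. Ccl5, an attractant of T cells that interferon and NF-kB signals induce, went the other way, with 245, 166, 202 and 203 TPM in B6 and 40.8, 44.8, 23.7 and 30.8 TPM in C57. The lowest B6 library was far above the highest C57 library, and the difference was -2.54 ± 0.18 (SE; adjusted p = 2.1e-10). Ccl17 and Ccl22, both ligands of the receptor Ccr4 made by dendritic cells, fell by 1.26 and 1.76. For Ccl17, an abundant message in both groups, the values were 4410.4, 3710.0, 3684 and 4517 TPM in B6 and 1659, 2204, 1425 and 1603 TPM in C57. Cxcl16, a scavenger receptor and chemokine, fell by 0.97, and Ccl3 and Ccl4, inflammatory chemokines, rose by 0.43 and 0.60. Among chemokine receptors 5 of 10 rose and 1, Ccr7, fell, with Cxcr4, which retains cells in the marrow, higher by 1.07.

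Inflammatory cytokines rose in 12 of 25 tested genes and fell in 1 (9 and 4 after scaling). Il1a, an alarm cytokine, stood at 70.3, 61.4, 75.2 and 70.7 TPM in B6 and 169, 209.6, 227 and 189.9 TPM in C57. All C57 libraries were above all B6 libraries (1.5 ± 0.12, SE; adjusted p = 3.1e-10). Il6 read 4.01, 2.57, 4.0 and 4.42 TPM in B6 and 8.77, 15.4, 10.4 and 8.89 TPM in C57, also without overlap (1.30 ± 0.17, SE; adjusted p = 1.3e-06). Il1b rose by 0.72, the macrophage growth factor Csf1 by 0.97 and Il12b, a subunit of interleukins 12 and 23, by 0.73, the last from means of 1.23 to 2.69 TPM (adjusted p = 0.015, and 0.051 without B6_Untreated replicate 2). The single fall was Il15, a cytokine presented to natural killer and memory T cells (-0.80; adjusted p = 4.5e-05). Tnf, at 134, 99.2, 138 and 143 TPM in B6 and 123, 128, 132 and 129 TPM in C57, overlapped and was not called (0.01 ± 0.12, SE; adjusted p = 0.97). Il10 was under 1 TPM in all 8 libraries (adjusted p = 0.67).

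Tlr4, the LPS receptor, stood at 97.9, 119.6, 79.6 and 92.6 TPM in B6 and 139, 138, 134 and 122 TPM in C57, with no overlap (0.46 ± 0.10, SE; adjusted p = 8.0e-04). Cd14, its co-receptor, was at the edge of the threshold (0.25; adjusted p = 0.045), its call was lost on leaving out any of 5 libraries (adjusted p = 0.051 to 0.19), and after scaling its difference was 0.03. Of 19 genes of the LPS receptor pathway, 5 rose and 1 fell, a share higher that is below the 31.9% of all genes, and the split became 4 and 6 after scaling. Among 10 other Toll-like receptors 5 rose and 0 fell (5 and 3 after scaling). Tlr2, the receptor of bacterial lipopeptides, read 182, 174, 179 and 193 TPM in B6 and 349.5, 367, 336 and 347 TPM in C57, which did not overlap (0.94 ± 0.09, SE; adjusted p = 3.2e-09), and Tlr7, an endosomal RNA sensor, rose by 1.23. NF-kB subunits and their brakes fell in 9 of 24 genes and rose in 2 (19 lower and 0 higher after scaling), with Map3k14, the kinase of the non-canonical pathway, lower by 1.27 and the subunit Rel by 0.59. Nos2, the inducible nitric oxide synthase, was near 1 TPM in both groups (means 0.56 and 1.34 TPM) and was called higher (0.58; adjusted p = 4.7e-04).

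Macrophage genes did not move as a block: 6 of 21 markers rose, near the 31.9% of all genes, and 5 fell. The median was 0.11, which became -0.10 after scaling. The summed level of the list was nonetheless higher in C57, at 9786 to 11754 TPM in B6 and 14509.5 to 15970 TPM in C57. The 3 chains of complement C1q, which tags debris and immune complexes, were lower in C57. C1qa stood at 239.7, 215, 168 and 215 TPM in B6 and 59.8, 78.5, 44.9 and 52.8 TPM in C57. The groups were 3.55-fold apart and did not overlap (-1.83 ± 0.16, SE; adjusted p = 3.2e-09), and C1qb and C1qc fell by 1.35 and 1.37. Mrc1, the mannose receptor, moved up, from 35.7, 26.3, 44.6 and 52.1 TPM in B6 to 114, 84.8, 119 and 118 TPM in C57. Even the lowest C57 library, replicate 2, exceeded the highest B6 library (1.47 ± 0.22, SE; adjusted p = 2.6e-05). Mertk, a receptor for the uptake of dead cells, rose by 0.97 and the lysozyme gene Lyz2, the marker of the myeloid lineage, by 0.63. Marco, a scavenger receptor of bacteria and particles, read 3.18, 1.57, 8.43 and 7.84 TPM in B6 and 31.6, 23.5, 36.9 and 31.8 TPM in C57. Values varied within B6 but stayed below all C57 values (2.53 ± 0.33, SE; adjusted p = 6.2e-06). In all, 11 of 23 scavenger and C-type lectin receptors rose and 5 fell (8 and 7 after scaling).

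Other surface and effector genes were mixed. Fc receptors, Siglecs and paired receptors rose in 10 of 27, near the 31.9% of all genes, and fell in 4 (8 and 9 after scaling). Pirb, an inhibitory receptor that binds MHC class I, stood at 122, 113, 89.3 and 98.7 TPM in B6 and 58, 58.7, 53.9 and 52.6 TPM in C57. The groups did not overlap (-0.90; adjusted p = 3.9e-07), and Fcgr1, the high-affinity receptor for IgG, fell from a mean of 109 to 63 TPM. Siglec1, a sialic acid receptor of macrophages, rose by 1.31 from a mean of 2.87 TPM. Complement genes rose in 5 of 16, near the background of 31.9%, and fell in 3, the C1q chains (5 and 6 after scaling), and the alternative pathway gene Cfb rose from a mean of 19.7 to 44.6 TPM. Integrins and adhesion molecules rose in 11 of 25 and fell in 2 (9 and 10 after scaling), with the beta 3 integrin Itgb3 higher by 1.57 and Jaml, a junctional adhesion molecule, lower by 0.99. Matrix, protease and coagulation genes rose in 13 of 34 and fell in 5 (10 and 9 after scaling), a share higher that is near the 31.9% of all genes, with the gelatinase Mmp2 higher by 1.55, tissue factor F3 by 1.20 and the membrane-bound protease Mmp25 lower by 1.39.

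Enzymes of nitric oxide, arginine, itaconate and prostanoid metabolism rose in 10 of 22 genes and fell in 1 (8 and 2 after scaling). The fall was that of Ltc4s, which makes leukotriene C4 (-0.54). Ptges, the inducible synthase of prostaglandin E2, stood at 2.29, 2.04, 2.03 and 2.46 TPM in B6 and 7.66, 3.95, 8.98 and 7.95 TPM in C57. These low values did not overlap (1.30; adjusted p = 8.3e-07). The arginase Arg2 rose by 1.18 and the lipoxygenase Alox5 by 0.88, while the other arginase, Arg1, rose by 1.07 but was not called without C57_Untreated replicate 3 (0.85; adjusted p = 0.052). Genes of alternative activation moved both ways, 6 of 18 higher, near the 31.9% of all genes, and 7 lower (5 and 10 after scaling). Chil3, a chitinase-like protein, rose by 0.70, and Socs2, a brake on Stat5 signalling, fell by 1.23. Inflammasome and cell death genes rose in 14 of 31 and fell in 5 (14 and 11 after scaling). Mefv, which encodes the sensor pyrin, stood at 16.9, 21.8, 8.87 and 10.2 TPM in B6 and 4.25, 5.8, 3.99 and 3.99 TPM in C57. All C57 values lay below B6 (-1.42; adjusted p = 2.6e-06), whereas the adaptor Pycard rose by 0.76 and the necroptosis effector Mlkl by 0.79. Growth factor receptors rose in 5 of 27 and fell in 6 (4 and 16 after scaling), with Il17ra, the receptor of interleukin 17, higher by 1.12 and Csf2rb2, another GM-CSF family chain of the mouse, lower by 0.44. Osteoclast-type markers rose in 6 of 10 and fell in 3, Ctsk and Itgb3 among the former and the fusion protein Dcstamp (-0.47) among the latter.

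Lysosomal proteases and hydrolases were higher in C57 in 20 of 30 genes and lower in 1 (Npc2, -0.26), with a median of 0.46. Ctsk, a collagen-degrading cathepsin (chromosome 3, 95499256 to 95509362, plus strand, mm10), stood at 6.47, 6.82, 9.13 and 9.13 TPM in B6 and 42.7, 39.2, 46.3 and 46.6 TPM in C57. It was 5.07-fold higher with no overlap (2.34 ± 0.13, SE; adjusted p = 3.7e-13). Ctsd, the main aspartic protease, read 1289.7, 1172, 1079 and 1227 TPM in B6 and 2929, 2536, 2837 and 2755 TPM in C57 (1.21 ± 0.10, SE; adjusted p = 6.4e-10). Atp6v0d2, a subunit of the proton pump, rose by 1.27, and Tfeb, the transcription factor of lysosome formation, by 0.68.

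Genes of lipid handling mostly rose, 15 of 23 higher and 4 lower (12 and 4 after scaling), but 2 apolipoproteins went down. Apoe, a carrier of cholesterol (chromosome 7, 19696109 to 19699188, minus strand, mm10), stood at 86.4, 56.7, 126 and 95 TPM in B6 and 7.98, 9.85, 6.86 and 7.15 TPM in C57. This 9.96-fold lower level was one of the largest falls of the comparison (-3.32 ± 0.26, SE; adjusted p = 4.4e-09), and its neighbour Apoc2 fell by 1.65. Ch25h, which makes 25-hydroxycholesterol, read 11.7, 11.6, 16.4 and 17.7 TPM in B6 and 55.3, 72.6, 67.6 and 63 TPM in C57. No library overlapped (2.11 ± 0.14, SE; adjusted p = 8.2e-12). The fatty acid carrier Fabp4 rose by 1.78. Cholesterol synthesis genes rose in 9 of 24, near the background of 31.9%, and fell in 1, which became 2 and 3 after scaling, and the largest rise was that of Dhcr7, the last enzyme of the pathway (1.45; adjusted p = 1.7e-10).

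Markers of granulocytes were higher in C57. In 16 of 21 tested markers of neutrophils and granulocyte precursors the level rose, in 2 it fell (Stfa1 and Wfdc21), and the median was 0.73, and without C57_Untreated replicate 2 the level rose in 17. The summed level of the list was 2243, 2527, 2323 and 2303 TPM in B6 and 4075, 2976, 4035 and 4734 TPM in C57, with C57_Untreated replicate 2 nearest to B6. Ltf, the iron binder of secondary granules, stood at 5.94, 8.77, 6.45 and 6.94 TPM in B6 and 56.2, 30.3, 58 and 83.6 TPM in C57. The groups did not overlap (2.78 ± 0.42, SE; adjusted p = 3.7e-05). S100a8, a calcium-binding alarmin and the most abundant of the list, read 793, 962, 957 and 966 TPM in B6 and 1737, 1288, 1765 and 2085 TPM in C57 (0.89; adjusted p = 1.7e-04). Defining azurophil granule genes were near 1 TPM: Mpo had means of 0.473 and 1.23 TPM and Elane, not called, of 1.72 and 2.35 TPM.

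Of 15 tested markers of mast cells, basophils and eosinophils 7 rose and 0 fell, and their summed level was 116 to 235 TPM in B6 and 421 to 559 TPM in C57. Most of that sum was Ear2, an eosinophil-type ribonuclease at 121, 85.8, 207 and 179 TPM in B6 and 495, 372, 411 and 366 TPM in C57, which did not overlap (1.54 ± 0.33, SE; adjusted p = 0.0011). Its relative Rnase2a rose by 2.65 and Ear1 by 2.05, and since members of this family are near copies their values are uncertain. The mast cell proteases Mcpt4, at 0 in all libraries, and Tpsb2, with means of 0.0556 and 0.0428 TPM, were absent or nearly so, whereas the basophil proteases Mcpt8 and Prss34 rose from means of 1.19 and 1.2 TPM to 4.77 and 5.46 TPM, calls that were lost without C57_Untreated replicate 4 (adjusted p = 0.096 and 0.058) and, for Mcpt8, also without B6_Untreated replicate 3, B6_Untreated replicate 4 or C57_Untreated replicate 3 (0.062 to 0.077). Of 9 tested markers of B cells and plasmacytoid dendritic cells 5 rose and 1 fell (3 and 2 after scaling), with a summed level of 115 to 155 TPM in B6 and 118 to 140 TPM in C57. Of 20 markers of T, NK and innate lymphoid cells 4 could be tested, of which Il7r, the receptor of interleukin 7, rose (0.37) and Klrd1, a killer cell lectin, fell (-0.51), while Ncr1 and Gzma were at 0 in all 8 libraries and the T cell receptor chain Cd3e in 7 of 8. The summed level of that list was 77.8 to 126 TPM in B6 and 108 to 147 TPM in C57, most of it Il7r. Erythroid and megakaryocyte markers fell in 2 of 8 and rose in 1 (sums of 289 to 466 TPM in B6 and 237 to 335 TPM in C57), and stromal and endothelial markers fell in 2 of 10 and rose in 3 (18.8 to 26.6 TPM and 21.8 to 25.4 TPM). The part that a different mix of cells had in the other gene groups was not tested.

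**Figure D2:**
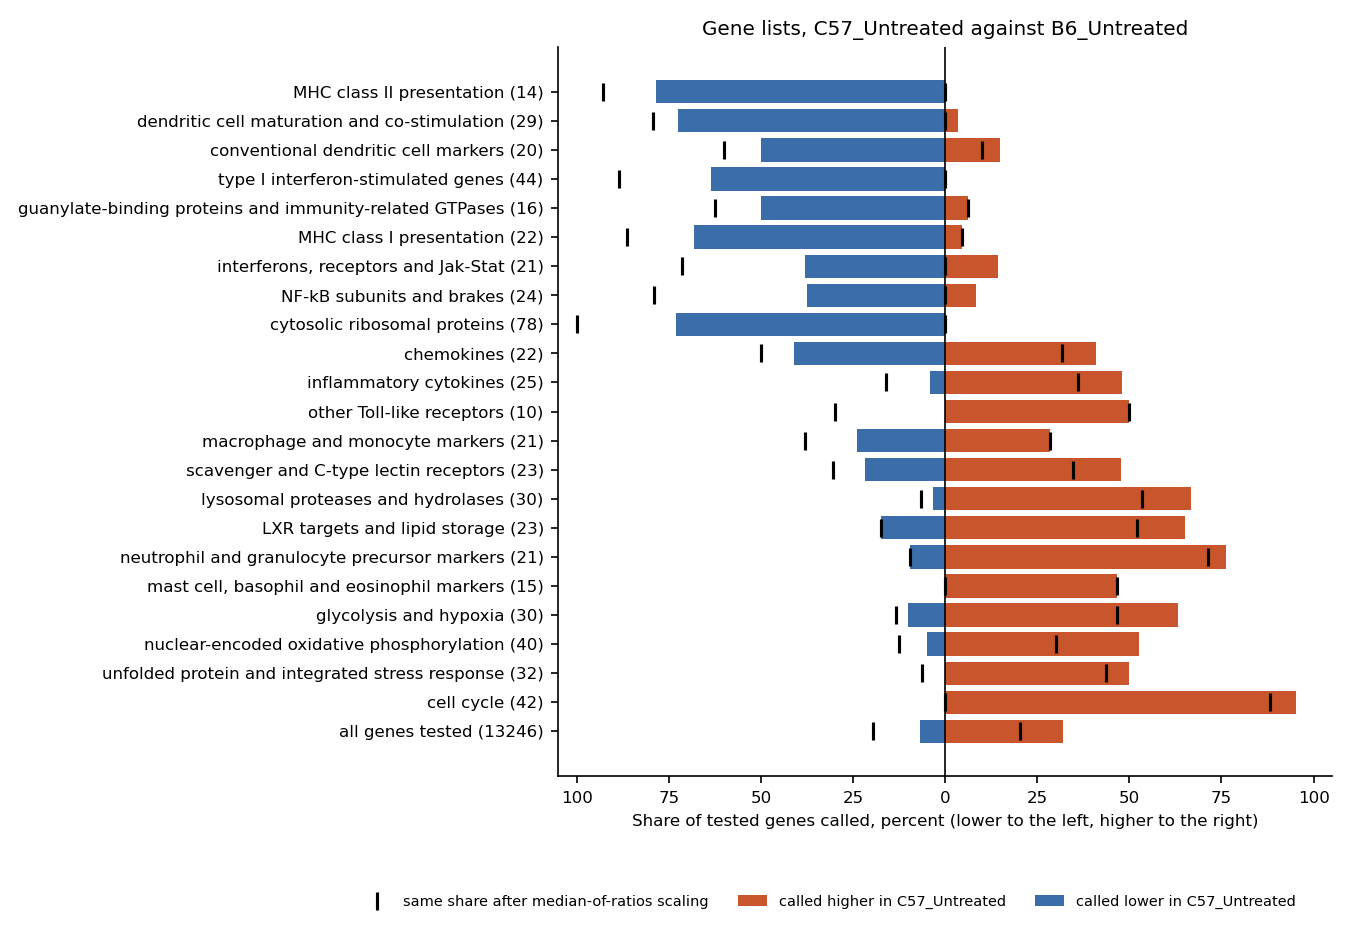
Share of the tested genes of each list called higher (right) or lower (left) in C57_Untreated than in B6_Untreated, with the number tested in brackets and black ticks for the same shares after median-of-ratios scaling. MHC class II, maturation, interferon and ribosomal protein genes lie to the left and cell cycle, granulocyte and lysosomal genes to the right on both scales, beside 31.9% higher and 6.92% lower for all genes.

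Proliferation genes were higher in C57 almost throughout: 40 of 42 tested cell cycle genes rose and 0 fell, with a median of 0.71 (37 and 0, median 0.50, after scaling). Rrm2, the regulated subunit of the enzyme that makes DNA precursors, stood at 19.7, 20.3, 14.7 and 17.9 TPM in B6 and 47.4, 41.6, 47.5 and 46.3 TPM in C57. It was 2.45-fold higher with no overlap (1.29 ± 0.11, SE; adjusted p = 1.1e-09). Mcm2, a subunit of the replicative helicase, read 7.85, 6.74, 5.69 and 8.14 TPM in B6 and 19.4, 16.1, 18.5 and 19 TPM in C57, again without overlap (1.25 ± 0.11, SE; adjusted p = 3.2e-09). The helicase subunits Mcm4 to Mcm7 rose by 0.98 to 1.04. Mki67, the marker of cycling cells, rose by 0.89, Tk1 by 1.20 and Top2a by 0.83, while the centromere histone Cenpa (0.15; adjusted p = 0.33) and E2f8 (0.27; adjusted p = 0.084) did not pass.

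The cell cycle homology region TTTGAA, an element of cell cycle promoters, was present in 12 of the 32 available promoters of cell cycle genes called higher (37.5%), against 12.5% of all promoters of tested genes. Shares as high were found in other lists, with 35.7% for maturation genes called lower and 37.5% for scavenger receptors called higher, and the promoter of Rrm2 held 0 matches. In Mcm2 it lies in the stretch below, shown because Mcm2 had the largest rise among the helicase genes, with the match in capitals:
Mcm2, chr6:88898815-88898880, minus strand: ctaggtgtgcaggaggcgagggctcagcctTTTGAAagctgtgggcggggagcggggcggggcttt

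Ribosomal protein genes moved the opposite way. Of 78 tested, 57 fell and 0 rose, with a median of -0.33, and after scaling all 78 were called lower. Rps27, the largest change, stood at 2012, 1909, 1692 and 1681 TPM in B6 and 1225, 1258, 1166 and 1202 TPM in C57. The difference was small in size but free of overlap (-0.58 ± 0.08, SE; adjusted p = 1.7e-06), and Fau and Rpsa fell by 0.55 and 0.54. Genes of ribosome biogenesis and Myc, which supply the factors that build ribosomes, were called for 2 of 30 genes: Ncl, a nucleolar protein (0.18), rose and Nop16 (-0.26) fell. After scaling 0 rose and 9 fell, so the rise of Ncl depended on the scale.

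Metabolic and stress genes leaned higher. Glycolysis and hypoxia genes rose in 19 of 30 and fell in 3 (14 and 4 after scaling), with Bnip3, a mitophagy receptor induced by hypoxia, at 13.3, 16.4, 12.2 and 14.5 TPM in B6 and 33.4, 38.7, 43.2 and 33.1 TPM in C57. Its groups did not overlap (1.34 ± 0.13, SE; adjusted p = 1.1e-08), and the glucose transporter Slc2a1 rose by 0.92. Nuclear genes of oxidative phosphorylation rose in 21 of 40 and fell in 2 (12 and 5 after scaling), whereas of 13 mitochondrially encoded messages 0 were called. Unfolded protein and integrated stress response genes rose in 16 of 32 and fell in 0 (14 and 2 after scaling), led by the stress pseudokinase Trib3 (1.60; adjusted p = 7.4e-07) and the serine synthesis enzyme Phgdh (1.43; adjusted p = 7.3e-09). Hmox1, the haem-degrading enzyme, rose by 1.05, but antioxidant genes as a list rose in 10 of 34 and fell in 0, near the background share, and after scaling 6 rose and 8 fell. Heat shock and immediate early genes rose in 18 of 32 and fell in 1 (9 and 8 after scaling). The fall was that of Nr4a3, an orphan nuclear receptor, at 80.1, 59.4, 64.6 and 78.3 TPM in B6 and 31.3, 38.9, 24 and 24.3 TPM in C57, which did not overlap (-1.24; adjusted p = 2.6e-07). Nnt, a mitochondrial transhydrogenase that some laboratory substrains lack in working form, stood at 5.55, 4.65, 4.67 and 5.55 TPM in B6 and 8.53, 6.72, 8.18 and 8.41 TPM in C57. All C57 libraries were above B6 (0.55 ± 0.13, SE; adjusted p = 0.0015), and the mean in PWD_Untreated was 24.2 TPM.

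Some of the largest changes lay outside these lists. The nuclear body protein Sp140, an interferon-linked reader of chromatin (chromosome 1, 85600378 to 85645037, plus strand, mm10), stood at 68.5, 53.7, 60.2 and 68.4 TPM in B6 and 3.38, 1.8, 1.57 and 5.23 TPM in C57. It was 16.9-fold lower (-4.08 ± 0.22, SE; adjusted p = 4.6e-12), and its neighbour Sp110 fell by 1.46. Mucl1, a small mucin-like protein, fell from 27.6, 17.7, 28.8 and 43.1 TPM to 2.63, 2.33, 2.44 and 1.35 TPM (-3.20; adjusted p = 2.6e-11). Arl5c, a small GTPase, fell by 2.56, Psme2b, a copy of a proteasome activator gene, by 2.60, the membrane protein Ms4a4a by 2.19 and the adenylate cyclase Adcy6 by 2.02. Among the rises, Serpinb1a, an inhibitor of neutrophil proteases, stood at 2.6, 2.99, 2.69 and 5.03 TPM in B6 and 25.9, 19.8, 28.6 and 25.6 TPM in C57. The groups did not overlap (2.61 ± 0.17, SE; adjusted p = 5.8e-12). Perp, a membrane protein of desmosomes and cell death, rose by 2.49, the guanosine monophosphate reductase Gmpr by 2.21 and the haem-binding protein Hebp1 by 2.12. Rnu1b2, a U1 small nuclear RNA gene with many copies, was listed at 0 in 3 B6 libraries and at 9.2 TPM in the other, against 17.1, 19, 14.2 and 25 TPM in C57. Its relative Rnu1b1 went the other way (-2.65; adjusted p = 0.030), so the rise of Rnu1b2 does not stand for U1 RNA as a whole.

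The 2-fold genes were not spread evenly over the genome. Chromosome 11 held 74 of the 504 (14.7%), which was 7.13% of its 1038 tested genes, against 1.85% to 4.73% on the 19 other chromosomes with at least 100 tested genes. The share of genes called at any size was 43.6% on chromosome 11 and 34.9% to 41.9% on the others. Of the 74, 36 were higher and 38 lower in C57. On chromosome 11 the first 45 Mb held 5 of 165 genes at 2-fold (3.03%) and the rest 69 of 873 (7.90%), a boundary chosen after the values were seen. The intervals with the highest shares were 40 to 50 Mb, with 10 of 46 genes (21.7%), and 80 to 90 Mb, with 17 of 106 (16.0%).

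**Figure D3:**
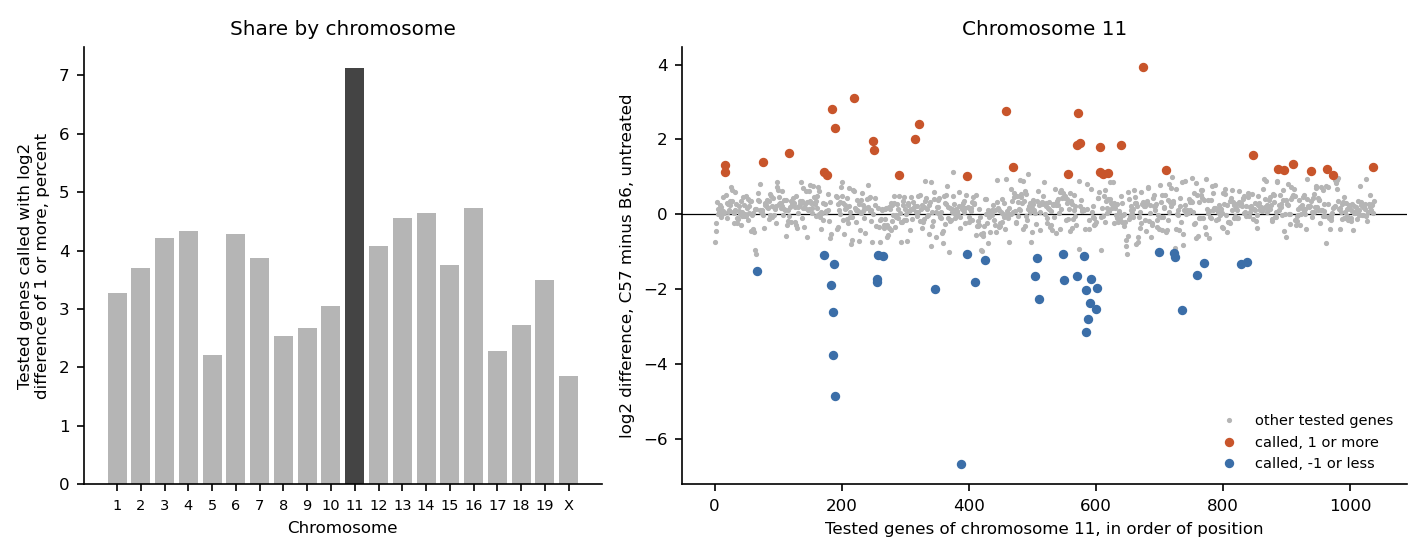
Left, percent of tested genes called with a log2 difference of at least 1 either way, for each chromosome with at least 100 tested genes. Right, log2 difference (C57 minus B6, untreated) of the 1038 tested genes of chromosome 11 in order of position, with called genes past 1 or -1 coloured. Chromosome 11 stands at 7.13% and the others at 1.85% to 4.73%.

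Several of these genes were neighbours. The stretches given below, here and on other chromosomes, run from their first to their last 2-fold gene. Their shares of 2-fold genes are therefore high by construction. From 48887422 to 49135387 of chromosome 11 (mm10), 7 of 10 tested genes were 2-fold apart, and they went in both directions. In this stretch Psme2b stood at 23.8, 20.9, 23.5 and 24.9 TPM in B6 and 3.32, 3.25, 2.1 and 3.42 TPM in C57, and its mean in PWD_Untreated was 2.86 TPM. The protein-coding gene model 9930111J21Rik2 read 64.5, 36.3, 36.4 and 43.8 TPM in B6 and 0.606, 0.72, 0.412 and 0.514 TPM in C57, and its mean in PWD was 0.0261 TPM. Gm12185, also protein-coding, was higher in C57 (1.06, 0.357, 0.352 and 0.447 TPM in B6, 9.88, 13.6, 8.24 and 7.87 TPM in C57, mean in PWD 0.584 TPM). The PWD mean was near the C57 values for Psme2b and near the B6 values for Gm12185. The chemokine genes Ccl2, Ccl7 and Ccl1 lie from 82035571 to 82305690, with PWD means of 404, 71.2 and 0.104 TPM. The Schlafen genes lie from 82951349 to 83260960, where 6 of 11 tested genes were 2-fold apart, all lower in C57, and the PWD means of Slfn5, Slfn8 and Slfn1 were 7.26, 2.19 and 4.86 TPM. Among the 6 was the pseudogene Gm11425, closest to Rpl12, with means of 8.5 TPM in B6, 0.0658 TPM in C57 and 83.2 TPM in PWD. Of the smaller differences there, Slfn10-ps rose by 0.81, Slfn9 and Slfn3 fell by 0.38 and 0.40, and Slfn2 and Slfn4 were not called. Ccl5 is in the next stretch, 83525778 to 83711348, with a PWD mean of 6.57 TPM.

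Outside chromosome 11, runs of at least 3 2-fold genes within 250 kb of each other included the MHC class II genes on chromosome 17 (34143307 to 34316674, 5 of 10 tested genes), the C1q genes on chromosome 4 (136880129 to 136898803, 3 of 3) and Gbp2, Gbp3 and Gbp5 on chromosome 3 (142493978 to 142638008, 3 of 6). On chromosome 1, Sp110 and Sp140 were in 1 run of falls (85576899 to 85645037). A separate run before it (84990638 to 85327306, 4 of 11 tested genes) held rises of C130026I21Rik (1.32), Gm2619 (2.31), Gm16026 (1.24) and Gm29284. The pseudogenes Gm29284 and Gm16026 are closest to Sp110 and Gm2619 to Sp100. Gm29284 was listed at 0 TPM in all 4 B6 libraries and stood at 41.1, 46.4, 34 and 31.8 TPM in C57. The mean of Gm29284 in PWD was 8.11 TPM. Gene families in such clusters share sequence, and reads of one copy can be counted to another.

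Pseudogenes showed a pattern of their own. Of 704 tested pseudogenes with a match of at least 90% identity to a coding transcript, 58 (8.24%) had their closest coding gene on chromosome 11. Of the 30 that were 2-fold apart, 17 (56.7%) were of that kind, 14 of them not themselves on chromosome 11 and 14 of them higher in C57. In other terms, 29.3% of the 58 were 2-fold apart and 2.01% of the 646 others (13 pseudogenes). Some of the 17 shared a closest gene: Smarce1 for Gm4811 and Smarce1-ps1, Gm20390 for Gm5425 and Gm5566, and Rpl27 for Rpl27-ps3 and Gm11518. Rpl27-ps3 fell from a mean of 32.5 to 0 TPM and Gm11518 rose from 11.9 to 40.7 TPM, both with overlapping libraries. PWD was not always near C57: Rpl19-ps10 had means of 0, 1.29 and 0.239 TPM in B6, C57 and PWD. Gm7666, on chromosome 15 and closest to the prohibitin gene Phb of chromosome 11, stood at 2.6, 2.08, 1.52 and 3.38 TPM in B6 and 32, 30.8, 29.6 and 34.2 TPM in C57, with a PWD mean of 33.6 TPM. Phb itself had overlapping values of 57, 43.5, 54.5 and 67.8 TPM in B6 and 44.1, 42, 41 and 46 TPM in C57 (-0.34; adjusted p = 0.038, and 0.061 to 0.16 on leaving out any of 6 libraries). Gm4875, on chromosome 6 and closest to Lasp1, an actin-binding protein gene, was listed at 0 in 3 B6 libraries and at 0.293 TPM in the other, against 29.2, 27.8, 26.2 and 26.3 TPM in C57 and a mean of 32.3 TPM in PWD. Gm5182 (closest to Acaca) and Gm5913 (closest to G3bp1) had B6 means of 0.124 and 0.603 TPM, C57 means of 6.93 and 5.84 TPM and PWD means of 9.67 and 5.73 TPM. Rpl23a-ps3, on chromosome 14, read 25.7, 26.2, 16 and 15.5 TPM in B6 and 80.8, 80.0, 55.9 and 54.4 TPM in C57, and its PWD mean was 67.1 TPM. The ubiquitin pseudogene Ubb-ps had the largest rise of the genes named here, from 0.505, 1.28, 2.8 and 5.46 TPM in B6 to 589.5, 604, 542 and 557 TPM in C57, with a mean of 473 TPM in PWD, while Ubb on chromosome 11 fell from a mean of 458 to 318 TPM.

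How close such a pair is can be seen in the 61 bases around the 1 difference between Gm7666 and Phb (818 of 819 aligned bases identical) and between Rpl23a-ps3 and Rpl23a (467 of 468), taken from the GENCODE M21 transcripts within the reading frame of the coding gene. These 2 pairs are shown because the pseudogenes rose while the coding partners fell. The capital letter marks the base that differs:
Gm7666: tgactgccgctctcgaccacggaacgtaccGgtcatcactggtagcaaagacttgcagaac
Phb: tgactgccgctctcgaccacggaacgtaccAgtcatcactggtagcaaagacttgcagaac
Rpl23a-ps3: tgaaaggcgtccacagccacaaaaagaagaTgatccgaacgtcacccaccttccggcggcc
Rpl23a: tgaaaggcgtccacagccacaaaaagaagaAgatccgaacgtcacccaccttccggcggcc
With so few differences, many reads of these genes match both places, and no source used here says how the authors' counting dealt with such reads. The values of both members of each pair are therefore uncertain, and the cause of their difference between strains was not tested.

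**Figure D4:**
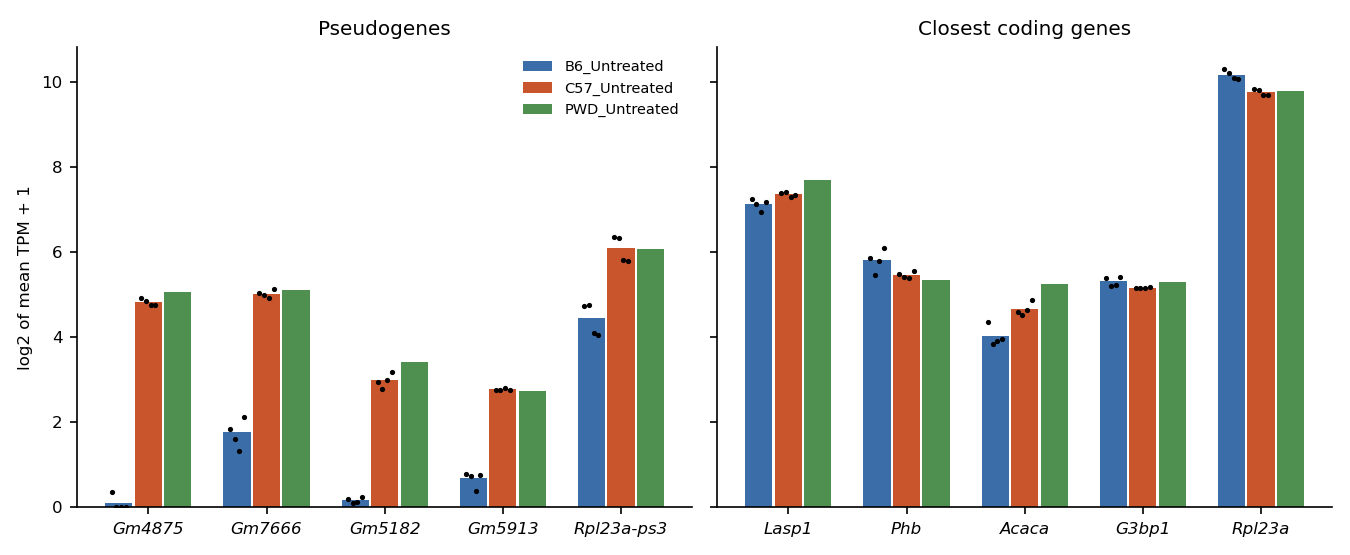
log2 of mean TPM + 1 in B6_Untreated, C57_Untreated and PWD_Untreated (bars, n = 4 each; points are the single B6 and C57 libraries) for 5 pseudogenes and, on the right, the chromosome 11 coding gene closest to each, in the same order. Each pseudogene is lower in B6 than in C57 and PWD, though Rpl23a-ps3 has a mean of 20.9 TPM in B6, whereas the coding genes differ between B6 and C57 by -0.41 (Rpl23a) to 0.64 (Acaca).

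The same strains were also compared after LPS, in 4 C57_LPS and 4 B6_LPS libraries. C57_LPS and B6_LPS differed in 7783 genes (58.8%), 6500 of them higher in C57 (49.1%) and 1283 lower (9.69%), and after scaling in 7575, of which 3642 were higher. Of the 504 genes 2-fold apart without LPS, 470 were called in the same direction with LPS, 31 were not called and 3 were called in the other direction (Gm9845, Gm11518 and Rpl27-ps3, all pseudogenes). The difference between the strain effects with and without LPS was tested as an interaction and was called for 1896 genes (14.3%; 10.9% more positive and 3.39% more negative with LPS), among them 107 of the 504 (21.2%). The 504 were chosen for their untreated difference, which the interaction subtracts, so these 2 shares cannot be compared. With median-of-ratios scaling the interaction was called for 3380 genes and the balance turned, with 1400 more positive and 1980 more negative. With replicates 1 and 2 alone it was called for 725.

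Leading genes of several groups kept a strain difference with LPS that was not called different: H2-Ab1 differed by -1.52, Aldh1a2 by -2.60, Ccl5 by -2.62 and Ccl7 by 2.43 (adjusted p of the interaction = 0.83, 0.74, 0.87 and 0.24). Il6 did not. Its mean with LPS was 943 TPM in B6 and 909 TPM in C57, a strain difference of -0.03 (adjusted p = 0.91) against 1.30 without LPS (interaction -1.33, adjusted p = 4.2e-04). Il1a differed less with LPS (0.70, interaction -0.80, adjusted p = 0.0021). Nos2 was higher in C57 without LPS but lower with it, at means of 171 TPM in B6_LPS and 71.6 TPM in C57_LPS (-1.25; interaction -1.82, adjusted p = 2.1e-07). Slfn1 was closer between the strains with LPS (-1.4; interaction 1.4, adjusted p = 8.6e-06). Cxcr4 and the glucose transporter Slc2a1 were further apart (1.83 and 1.57; adjusted p of the interaction = 0.0035 and 0.0058). All 30 tested genes of ribosome biogenesis and Myc were called higher in C57 with LPS (median 1.03), against 49.1% of all genes. The interaction was called for 28 of these 30, against 14.3% of all genes, both counts without scaling.

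**Figure D5:**
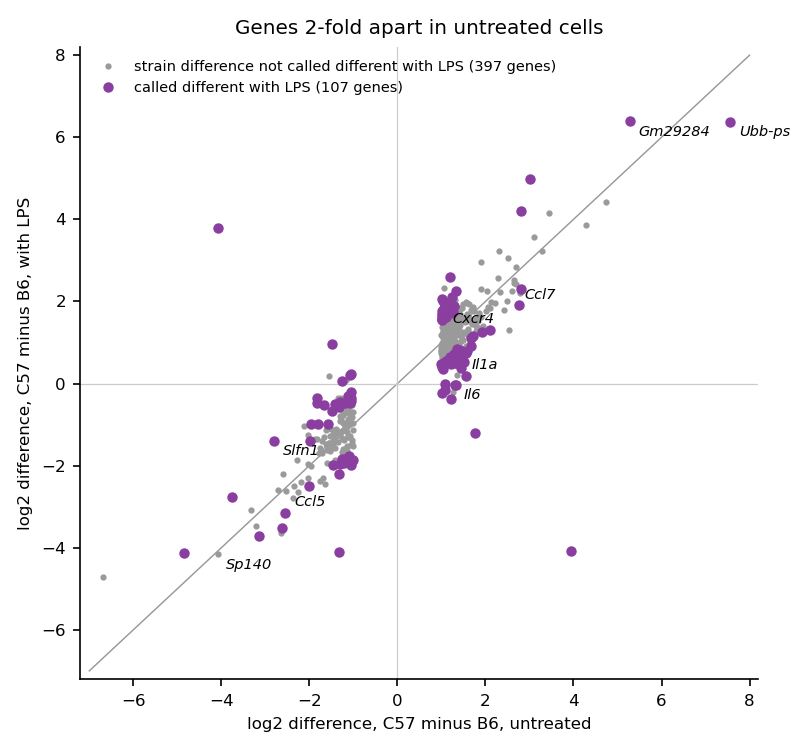
log2 difference (C57 minus B6) with LPS against the same difference without LPS for the 504 genes 2-fold apart in untreated cells, with the line of equality. The 107 genes called in the interaction are coloured, and 3 called genes lie in the quadrants of opposite sign with both differences past the threshold.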

How the data were processed

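The deposited table holds TPM per gene symbol for 24 bulk RNA-seq libraries, each summing to a fixed total, computed by the authors. STAR, edgeR and mm10 are named without versions or roles, per the submitters' processing notes, and no source used here says how reads were counted, whether strand was used or which annotation served. Because TPM carry no depth, read depth and counting error behind each value are unknown. Lines sharing a symbol (217) were summed, which left 55291 symbols. Genes with at least 1 TPM in at least 4 libraries were tested.

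The log2(TPM + 1) values of all libraries entered 1 limma 3.58.1 model (R 4.3.3) with 6 group means, 18 residual degrees of freedom, empirical Bayes with trend and robust options, two-sided tests, Benjamini-Hochberg adjustment over 13246 genes. Folds are on the same scale. The comparison, the 42 gene lists (953 tested genes) and the tests were chosen with earlier results of these data known. Lists are described by counts and medians, with no test of their own. Genes were named by rule: the 12 largest rises and 12 largest falls with a mean of at least 10 TPM in the higher group and no overlap, 10 fixed genes (Nnt, Tlr4, Cd14, Tnf, Il1b, Il6, Il10, Il12b, Nos2 and Xist) and at most 4 of the called genes per list. The text names part of these and adds others, such as Sp110, Isg15, Ifit3, Ccl17, Ciita, Cd86 and the pseudogenes, picked after their values were seen.

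Of the tested symbols 12944 matched 1 GENCODE M21 gene, whose mm10 coordinates are used, and 9419 have a RefSeq promoter. Pseudogene transcripts were matched to coding transcripts with blastn 2.17.0+. The fit was tested on simulated data first. Alternatives were other scalings, a pseudocount of 0.1 TPM, no filter or a filter of 5 TPM, a replicate block, and fewer libraries. The labels do not tie a replicate number to 1 mouse or batch across groups, so fits without a block are the main ones. Results for a few genes are not reported here.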

Additional observations from a re-analysis of the deposited data

Results flagged for a closer look

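A single library lay far from the other 3 of its group in 17 of 276 sets of 4 values examined (6.16%; chance alone gives about 1 in 20), and C57_Untreated replicate 2 accounted for 9 of them. It was far above the rest for Slfn5 (77.9 TPM), Ifit3 (55.4 TPM), Gbp5 (25.1 TPM), H2-T23 (108 TPM), Rel (32.1 TPM), Slfn1 (12.5 TPM) and Mlkl (18.7 TPM). It was far below them for Mrc1 (84.8 TPM) and Rnase2a (49.8 TPM). Elsewhere the library that stood apart was C57_Untreated replicate 1 for Il10 (0.0662 TPM), B6_Untreated replicate 4 for Serpinb1a (5.03 TPM), C57_Untreated replicate 3 for Stfa1 (1.65 TPM), B6_Untreated replicate 1 for S100a8 (793 TPM), C57_Untreated replicate 3 for Psme2b (2.1 TPM), B6_Untreated replicate 1 for Gm12185 (1.06 TPM), B6_Untreated replicate 1 for Gm4875 (0.293 TPM) and B6_Untreated replicate 4 for Rnu1b2 (9.2 TPM).

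Among the 134 tested genes examined one by one, 25 had a strain difference that changed with LPS (limma interaction, adjusted p under 0.05, log2 scale). The share over all genes tested was 14.3%. Many of the 134 were named for a large untreated difference, which itself enters the interaction, so their count says little about LPS. The C57 minus B6 difference was more negative with LPS for Nos2 (-1.82), Il6 (-1.33), Il10 (-1.27), Ubb-ps (-1.19), Il12b (-1.0), Mlkl (-0.85), Ch25h (-0.80), Il1a (-0.80), Tlr7 (-0.71), Ifi205 (-0.66), Arl5c (-0.60), Sp110 (-0.52), Gm5182 (-0.51) and Slfn8 (-0.48). It was more positive for Csf2ra (0.38), G3bp1 (0.46), Rrm2 (0.59), Slc2a1 (0.65), Bcl6 (0.71), 9930111J21Rik2 (0.73), Cxcr4 (0.76), 9930111J21Rik1 (1.00), Gm29284 (1.10), Gm12185 (1.4) and Slfn1 (1.4). Bcl6, Csf2ra, G3bp1 and Mlkl are among them, with differences of -0.14, 0.07, 0.32 and -0.06 with LPS. The interaction of Slfn8, Ifi205, Il12b, Sp110, Gm5182, Ubb-ps and Csf2ra was not called on leaving out at least 1 library, and with a pseudocount of 0.1 TPM it was not called for Il10, Gm29284 and Gm12185.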

How the results depend on the processing

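The count of genes called between untreated C57 and B6 was within 1.5 times of 5135 under every other scaling, pseudocount and filter tried, and 3393 with replicates 1 and 2 of each group alone and 504 where a log2 difference of at least 1 was also asked. Leaving out 1 library at a time gave 4203 to 5121 genes. With LPS the count was 7123 to 7816 on leaving out 1 library and 1197 at a log2 difference of at least 1. The interaction count was the least stable: 1528 to 2258 on leaving out 1 library, 3380 with median-of-ratios scaling, 4376 without structural RNA, 725 with replicates 1 and 2 alone and 229 at a log2 difference of at least 1. C57 minus B6 differences in shares of TPM stayed at -4.997 to -0.929 percentage points for structural RNA, 0.083 to 0.147 for mitochondrial messages and 0.066 to 0.141 for pseudogenes. With the replicate number as a block, 5103 genes were called, and 0 of the 128 called genes examined one by one lost the call. Same-numbered C57 and B6 libraries correlated at only 0.0078 to 0.102 in their deviations, and 1 of 4 correlated best with its own number, so these correlations do not pair single libraries across the strains. By Xist and Y-linked genes, though, replicates 1 and 2 of both strains differed from replicates 3 and 4. Same-numbered untreated and LPS libraries of a strain correlated at 0.051 to 0.176, 6 of 8 best with their own number, and with strain and number as a block the interaction was called for 2020 genes.

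Of those 128 genes, 2 lost the call with median-of-ratios scaling (Cd14 and Lasp1), 8 on leaving out 1 library, 18 with replicates 1 and 2 alone and 2 with replicates 3 and 4, and 0 changed sign. Differences that were not called changed sign in a few genes. Il10 was at 0.00247 with replicates 1 and 2. Tnf was at -0.20 with median-of-ratios scaling, -0.13 with quantile normalization, -0.065 without structural RNA, -0.10 with replicates 3 and 4, and -0.11 to 0.064 on leaving out 1 library. Xist was at -0.13 with a pseudocount of 0.1 TPM, -0.10, -0.060 and -0.044 under the 3 scalings in the same order, -0.052 with replicates 1 and 2, and -0.98 to 1.05 on leaving out 1 library. With LPS, Il6 was at 0.085 with quantile normalization, 0.13 with replicates 1 and 2 and -0.19 to 0.066 on leaving out 1 library; G3bp1 was at -0.076 with median-of-ratios scaling and -2.08e-05 with quantile normalization; Csf2ra was at -0.34 with median-of-ratios scaling; and Mlkl was at 0.065 with replicates 3 and 4 and -0.14 to 0.014 on leaving out 1 library. Apart from the alternatives built from fewer libraries or a stricter rule, the cause was not tested. TPM keep no depth, so the counting error behind genes near 1 TPM is unknown.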
